A study of Mus musculus with 9 samples.

Results

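The genes described here are the cyclins, cyclin-dependent kinases (CDKs) and CDK inhibitors that act in the G1 phase of the cell cycle. They were taken by name: the D-type cyclins Ccnd1, Ccnd2 and Ccnd3, the E-type cyclins Ccne1 and Ccne2, the kinases Cdk4 and Cdk6, and the inhibitors Cdkn1a, Cdkn1b and Cdkn2c. All 10 were found among the 29995 genes of the expression table that excludes immunoglobulin (Ig) genes. RNA-seq had been performed on 3 populations sorted from the spleens of 12-week-old B6.Blimp1+/GFP mice, with 3 libraries in each. In these animals 1 copy of Prdm1, the gene for Blimp1, carries a GFP reporter, so GFP marks cells that transcribe Prdm1. By the labels every mouse, including those that gave the naive cells, had received 50 µg of NP-LPS into the peritoneum 4 days earlier. NP-LPS is bacterial lipopolysaccharide carrying the hapten nitrophenyl, so there was no group from mice that were not immunized. Naive B cells were B220+ and IgD high and did not bind NP. Activated B cells bound the hapten and were B220+, IgD-, GFP- and CD138-. Plasma cells (PCs) also bound the hapten and were IgD-, GFP+ and CD138+. Cells bearing CD4, CD8a, F4/80 or Ter-119 were gated out of each population.

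D-type cyclins bind CDK4 or CDK6, and the resulting kinases begin to phosphorylate the retinoblastoma protein (Rb), which holds E2F transcription factors in check. E2F released from Rb switches on the E-type cyclins, which partner CDK2 and carry the cell into S phase. The INK4 inhibitors, among them p18 (Cdkn2c), block CDK4 and CDK6, whereas the Cip/Kip inhibitors p21 (Cdkn1a) and p27 (Cdkn1b) bind cyclin-CDK complexes more broadly. In the B lineage, proliferating plasmablasts leave the cycle as they mature, and p18 is known to be needed for the formation of functional plasma cells. The comparisons below ask how transcripts of this machinery differed between resting cells, activated antigen-binding B cells and early PCs.

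The libraries held 28490300 to 31719400 estimated reads in naive B cells, 34918400 to 38602300 in activated B cells and 20189900 to 22137400 in PCs once Ig genes were left out. Ig genes took 57.5 to 62.3% of listed TPM (an abundance corrected for the length of each transcript) in PCs and 5.62 to 6.95% in the other libraries. The sort was mirrored in the markers. The summed TPM of 8 B cell genes was 9660 to 10005 in naive B cells, 6510 to 7158 in activated B cells and 1507 to 1589 in PCs, and that of the 6 plasma cell genes in the table was 196.0 to 222, 274 to 308 and 5525 to 6798. A pair of libraries stood apart. In PC replicate 3 the sum over 8 liver genes was 6086 TPM, with Apoa2 at 2682 and Alb at 660.5, against 26.5 and 23.0 in the other PC libraries, and its sum over 7 myeloid genes was 105.8 against 12.0 and 22.4. In activated B cell replicate 2 the myeloid sum was 73.6, against 20.0 and 16.3 in its group, with S100a8 at 24.7 where both other libraries were at 0. T cell sums were 56.4 to 64.8, 24.8 to 59.2 and 5.04 to 9.66 TPM in the 3 groups, mostly Lck in both B cell groups but not in PCs, where Lck was at 0.264 to 0.995, with Cd3e at no more than 1.15 in any library. Erythroid sums did not exceed 37.0. Calls of members that change without either library are given both ways.

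The members lie on 6 mouse chromosomes. On the GRCm38 build (GENCODE annotation) the D-type cyclin genes are Ccnd1 at chr7:144929931-144939925, Ccnd2 at chr6:127125162-127152193 and Ccnd3 at chr17:47505051-47599691. The E-type genes are Ccne1 at chr7:38097984-38107534 and Ccne2 at chr4:11191351-11204779, and the kinases Cdk4 at chr10:127063534-127067920 and Cdk6 at chr5:3341485-3531008. The inhibitors are Cdkn1a at chr17:29090976-29100727, Cdkn1b at chr6:134920401-134925513 and Cdkn2c at chr4:109660876-109667189. Promoter windows of 300 bases from RefSeq (GRCm38.p6) were found for 7 of the 10 members, which are Ccnd3, Ccne1, Cdk4, Cdk6, Cdkn1a, Cdkn1b and Cdkn2c. These were searched on both strands for the E2F letters TTCGCGC, for the related letters TTGGCGC and likewise for the form TTCCCGC. The CHR letters TTTGAA of genes expressed late in the cycle were included, as was their form TTCGAA. As a search added after the data had been seen, the E-box, which reads CACGTG and is bound by Myc and related factors, was also counted. Because CACGTG reads the same on both strands, each match was counted once. Sequence is shown for Cdk4, which was the most abundant member, and for Cdkn2c, which had the largest rise of the 3 inhibitors among the members. Capitals mark CACGTG in the 249 bases before the GENCODE start of Cdk4 (chr10:127063285-127063533, + strand) and TTCCCGC in 29 bases just upstream of the start of a Cdkn2c transcript (chr4:109666764-109666792, - strand, inside an exon of a longer transcript).
Cdk4: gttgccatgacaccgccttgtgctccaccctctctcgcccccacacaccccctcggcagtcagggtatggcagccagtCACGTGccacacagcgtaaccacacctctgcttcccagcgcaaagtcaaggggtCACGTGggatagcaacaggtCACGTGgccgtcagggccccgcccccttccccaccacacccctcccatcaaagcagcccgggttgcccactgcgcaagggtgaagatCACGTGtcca
Cdkn2c: ggggcccggccTTCCCGCtcccgcggcgc
The Cdk4 window held CACGTG 4 times, beginning 172, 118, 98 and 11 bases before the RefSeq start, which lies 1 base downstream of the GENCODE start, and 8 of 32851 mouse promoter windows (0.0244%) held it 4 or more times. At least 1 CACGTG was present in 7.15% of windows, among them that of Cdk6 and a second window of Cdkn2c. TTCCCGC was present in 4.60% of windows, and in the Cdkn2c window it began 25 bases before the RefSeq start. The other letters searched were not in the members' windows. A match describes the letters only, and no binding was measured.

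**Figure D1:**
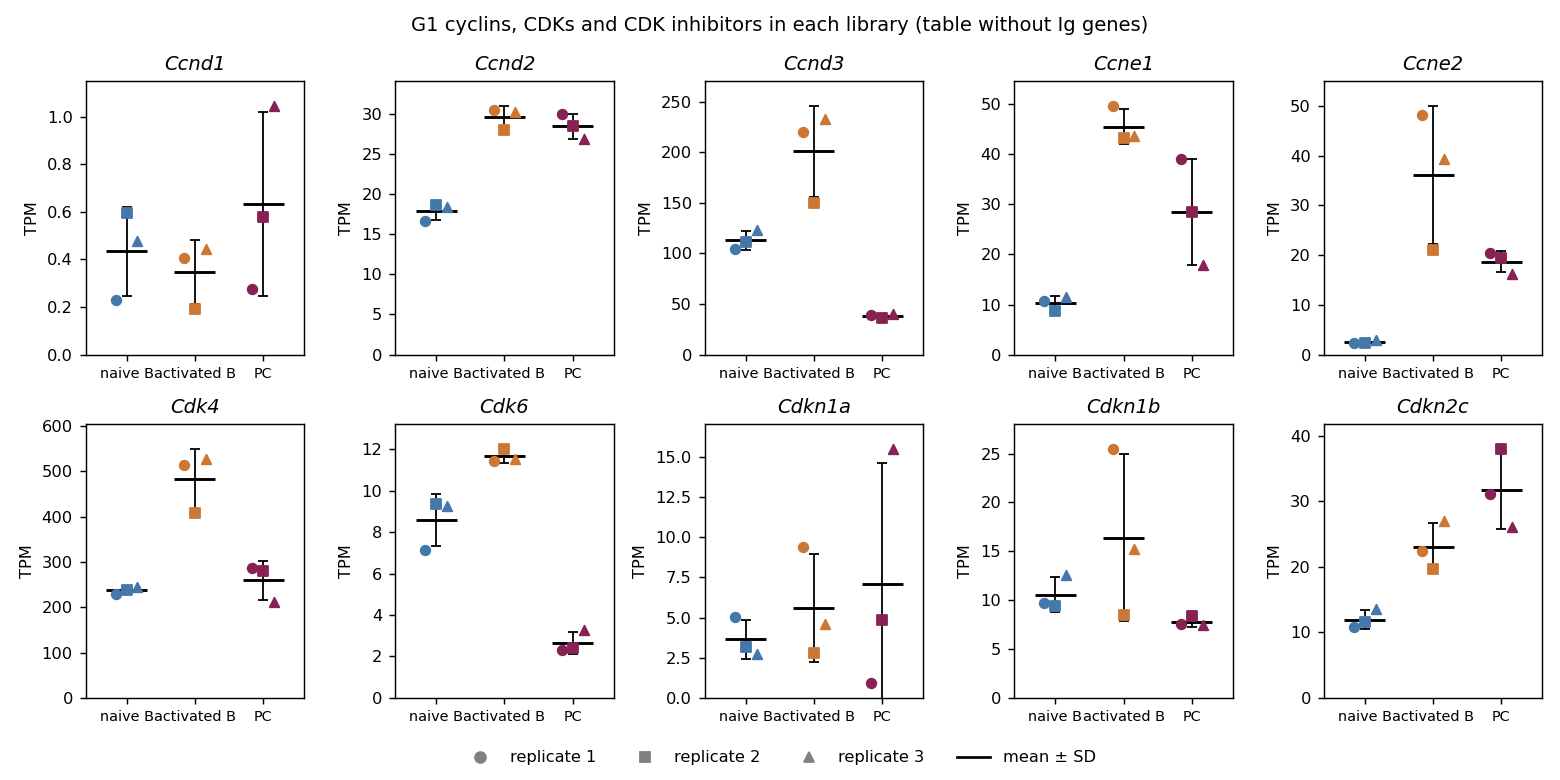
Level of each gene in every library, in TPM from the table without Ig genes, on axes that start at 0. Points are libraries, with a marker shape for the replicate number, which does not tie libraries together across groups, and black bars are the mean ± SD of 3 libraries, with the Cdkn1a bar of PCs running below the axis. Ccnd3 and Cdk6 in PCs lie below both other groups, whereas Ccne1, Ccne2 and Ccnd2 in PCs lie above naive B cells in this table, but with Ig genes kept this turns for Ccnd2, and Ccne1 is no longer called.

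Ccnd3, which encodes cyclin D3, was the main D-type cyclin of the B cells and was strongly reduced in PCs. Its level was 104.3, 111.7 and 122.8 TPM in naive replicates 1 to 3, 220.1, 149.8 and 233.3 in activated B cells, and 38.8, 36.6 and 39.7 in PCs. The 3 groups did not overlap, and the PC libraries lay close together while the activated B cell libraries spread widely, replicate 2 being the lowest. In PCs Ccnd3 fell by 1.55 ± 0.18 (log2 change ± SE, limma, adjusted p = 3.0e-05) relative to naive B cells and fell by 2.35 ± 0.18 relative to activated B cells (adjusted p = 1.2e-06). In activated B cells it was 0.80 ± 0.16 above naive B cells (adjusted p = 0.00230), a difference that did not reach 2-fold. A change is called here when its adjusted p-value is under 0.05 and it exceeds 2-fold. Bysl overlaps 361 bases of the Ccnd3 locus on the other strand and averaged 12.5, 14.4 and 13.6 TPM in the 3 groups, and the part of its reads in the Ccnd3 values was not tested. The pseudogene Ccnd3-ps stood at 0.144, 0.269 and 0.0264 TPM.

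Ccnd2, which encodes cyclin D2, the D-type cyclin known for its induction by mitogens in B cells, followed another course. It was measured at 16.6, 18.6 and 18.4 TPM in naive B cells, 30.5, 27.9 and 30.2 in activated B cells and 29.9, 28.4 and 26.9 in PCs. Every library of activated B cells and of PCs was above every naive library, and those 2 groups overlapped. Ccnd2 was 0.70 ± 0.13 higher in activated B cells (limma, adjusted p = 0.00151) and 0.65 ± 0.13 higher in PCs (adjusted p = 0.00115) than in naive B cells, both under 2-fold. Between PCs and activated B cells the log2 difference was -0.05, with a 95% confidence interval from -0.32 to 0.21 (adjusted p = 0.735). Both values of PCs depended on scaling. With Ig genes kept in the library total the difference from naive B cells became -0.52 and that from activated B cells -1.21, the latter called, and without rescaling the full table these were -0.97 and -1.61. In the other direction, median-of-ratios scaling and quantile normalization each gave 1.14 over naive B cells, which was called. Against activated B cells these gave 0.33 and 0.37 (limma, adjusted p = 0.0340 and 0.0137), under 2-fold. Ccnd1, the cyclin D1 gene, which lymphocytes scarcely use, was at 0.192 to 1.05 TPM over all 9 libraries, or 17.5 to 66.1 estimated reads, with all groups overlapping. It was below the expression filter (1 TPM or more in 3 or more libraries) and was the only member that was not tested. Without the filter, its log2 changes were -0.14, 0.24 and 0.38 in the comparisons of activated B cells with naive B cells, PCs with naive B cells and PCs with activated B cells (limma, adjusted p = 0.761, 0.631 and 0.437).

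The PC libraries stood apart in the make-up of the D-type cyclin pool. Ccnd2 supplied 13.6% ± 0.622 (SD, n = 3) of D-type cyclin TPM in naive B cells and 13.1% ± 2.27 in activated B cells, but 42.1% ± 2.06 in PCs. The PC libraries, at 43.4, 43.3 and 39.8%, were all above the highest of the other 6, which was 15.7%. Ccnd3 made up 86.0, 86.8 and 56.9% on average, and Ccnd1 0.327, 0.146 and 0.943%. A share within a library does not depend on how libraries are scaled to each other. The difference in the Ccnd2 share between PCs and naive B cells was 28.5 percentage points, with p = 0.1 in an exact two-sided permutation test, which is the smallest value that 3 libraries against 3 can give, and 0.171 after adjustment over 24 share tests. No share could therefore pass 0.05, and the same p of 0.1 and 0.171 held for each share below whose groups did not overlap.

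**Figure D2:**
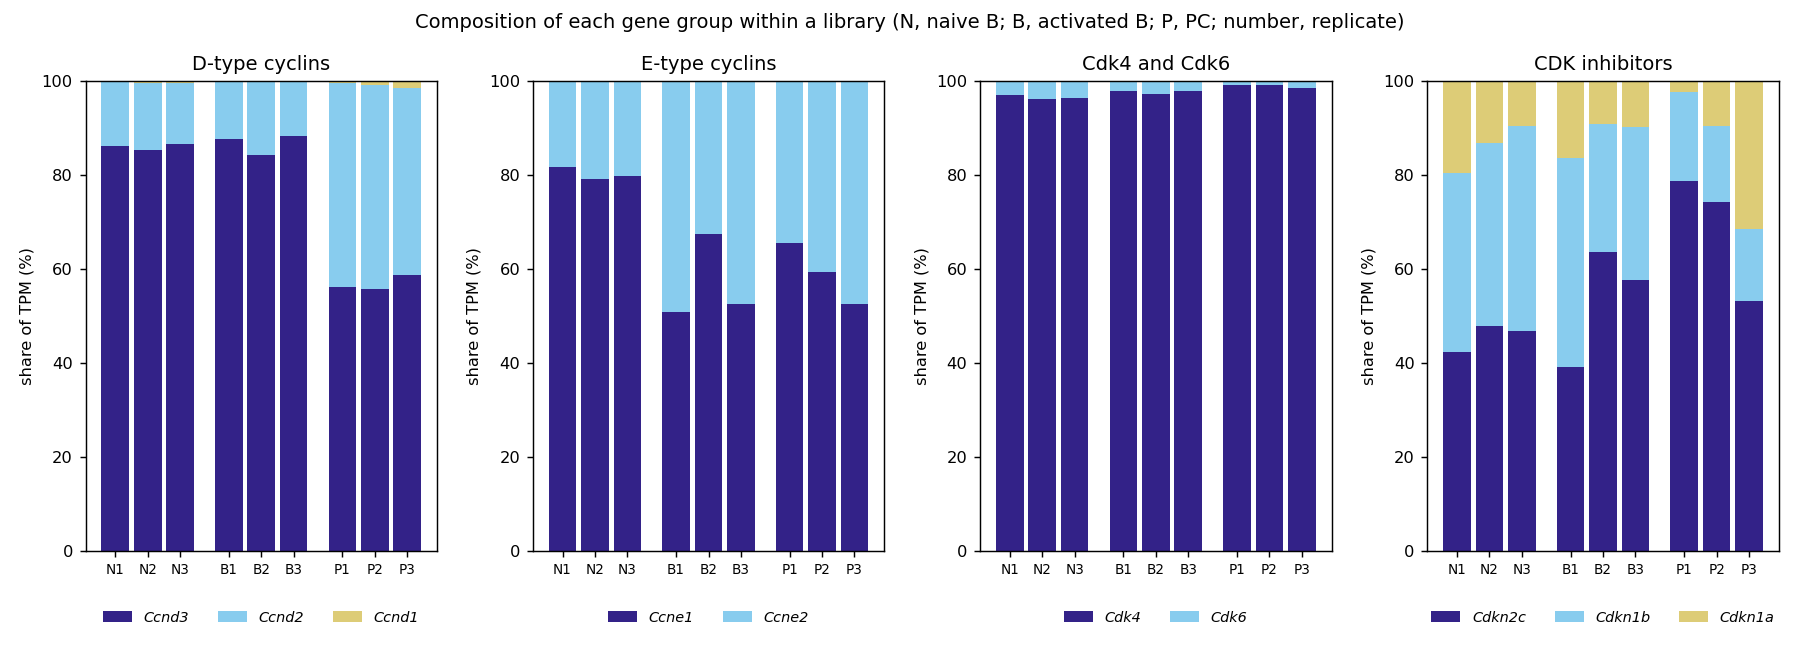
Share of TPM (%) taken by each gene within 4 gene groups, 1 stacked bar per library (N, naive B cells; B, activated B cells; P, PCs; the number is the replicate). Ccnd2 takes about as much of the D-type cyclin pool in N and B libraries, and 39.8 to 43.4% in P libraries, and the inhibitor pool of P3 is split differently from P1 and P2.

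The E-type cyclins, partners of CDK2 at the G1 to S transition, rose in both antigen-binding populations relative to transcripts other than Ig, and the rise of Ccne1 in PCs depended on that reference. Ccne1 stood at 10.8, 8.74 and 11.5 TPM in naive B cells, 49.7, 43.4 and 43.6 in activated B cells and 39.1, 28.4 and 17.9 in PCs. No library of 1 group overlapped with another group, although the PC libraries were widely spread, with replicate 3, the library with liver transcripts, the lowest. Ccne1 rose by 2.09 ± 0.26 on the log2 scale in activated B cells (limma, adjusted p = 0.000155) and by 1.35 ± 0.28 in PCs (adjusted p = 0.00147) relative to naive B cells. Without PC replicate 3 the change between PCs and naive B cells was 1.65, and with Ig genes kept it was 0.19 and was not called. With the deposited TPM of the full table used without rescaling, an alternative chosen after the data had been seen, it was -0.26 (adjusted p = 0.323 by limma). The PC level was 0.73 ± 0.22 below that of activated B cells (adjusted p = 0.0166), short of 2-fold, and without PC replicate 3 that difference was -0.44. With median-of-ratios scaling it was -0.35 and with quantile normalization -0.29 (limma, adjusted p = 0.185 and 0.239). With Ig genes kept it was -1.88 and was called.

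Ccne2 had the largest change of the members. It was at 2.40, 2.32 and 2.92 TPM in naive B cells, where it rested on 131.0 to 143.3 estimated reads a library, and at 48.1, 20.9 and 39.4 in activated B cells and 20.5, 19.4 and 16.3 in PCs. Every activated B cell library was above every PC library, but replicate 2 of the activated B cells only just so. The log2 rise was 3.51 ± 0.40 in activated B cells (limma, adjusted p = 7.3e-05) and 2.65 ± 0.41 in PCs (adjusted p = 0.000222), and between the antigen-binding groups the PC level was 0.85 ± 0.27 lower (adjusted p = 0.0201), again short of 2-fold. Without activated B cell replicate 2 that last difference was -1.20 and was called, and without replicate 1 it was -0.61 (limma, adjusted p = 0.0628). With median-of-ratios scaling it was -0.48 and with quantile normalization -0.38 (limma, adjusted p = 0.138 and 0.181). With Ig genes kept it was -1.98 and was called. The Ccne2 locus shares 5622 bases with Ints8 on the opposite strand, and the cDNA kit does not mark strand, so reads there could not be assigned to a gene by strand. Ints8 averaged 32.3, 36.7 and 26.8 TPM in the 3 groups, and its part in the Ccne2 values was not tested. Ccne1 accounted for 80.2% ± 1.43 of E-type cyclin TPM in naive B cells, 56.9% ± 9.14 in activated B cells and 59.1% ± 6.58 in PCs (SD, n = 3). The naive libraries, at 79.0 to 81.8%, did not overlap with the others, which overlapped among themselves.

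Cdk4, the G1 kinase and the most abundant member in each group, was higher in activated B cells than in either other group. Its TPM was 229.7, 238.8 and 245.6 in naive B cells, 515.0, 407.5 and 527.0 in activated B cells and 287.0, 279.5 and 210.6 in PCs. All activated B cell libraries were above all others, while the naive and PC libraries overlapped. The log2 change between activated and naive B cells was 1.00 ± 0.14 (limma, adjusted p = 0.000230), which lay on the 2-fold threshold and fell short of it in 3 of 9 fits that left out a library, with quantile normalization (0.85) and with Ig genes kept (0.99). PCs were 0.90 ± 0.13 below activated B cells (adjusted p = 0.000198), a difference that was -1.02 and called without activated B cell replicate 2, and differed from naive B cells by 0.10 ± 0.14 (adjusted p = 0.541, 95% confidence interval -0.20 to 0.41). With Ig genes kept, the latter value became -1.11, with quantile normalization -0.09 and with median-of-ratios scaling 0.60 (limma, adjusted p = 0.00257, under 2-fold). Tspan31, which overlaps 641 bases of the Cdk4 locus on the other strand, averaged 47.1, 73.4 and 69.1 TPM.

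Cdk6, the other kinase partner of the D-type cyclins, was far below Cdk4 in each group and fell in PCs. It was at 7.15, 9.35 and 9.26 TPM in naive B cells, 11.4, 12.0 and 11.5 in activated B cells and 2.31, 2.38 and 3.28 in PCs, the last from 373.0 to 524.6 estimated reads. No groups overlapped, and the PC libraries were the lowest. Cdk6 fell by 1.53 ± 0.22 relative to naive B cells (limma, adjusted p = 0.000112) and fell by 1.96 ± 0.21 relative to activated B cells (adjusted p = 1.7e-05), whereas the difference between the B cell groups was 0.42 ± 0.17 (adjusted p = 0.0710). Of the summed TPM of Cdk4 and Cdk6, Cdk6 took 3.47% ± 0.399, 2.39% ± 0.407 and 1.06% ± 0.411 (SD, n = 3) in naive B cells, activated B cells and PCs, and none of these groups overlapped. Thus the PCs were low in cyclin D3 and CDK6 transcripts at once, and both calls held in each comparison of PCs under every alternative that tested these genes. In sorted bulk samples, fewer cells that express a gene and less of its RNA per cell cannot be told apart.

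**Figure D3:**
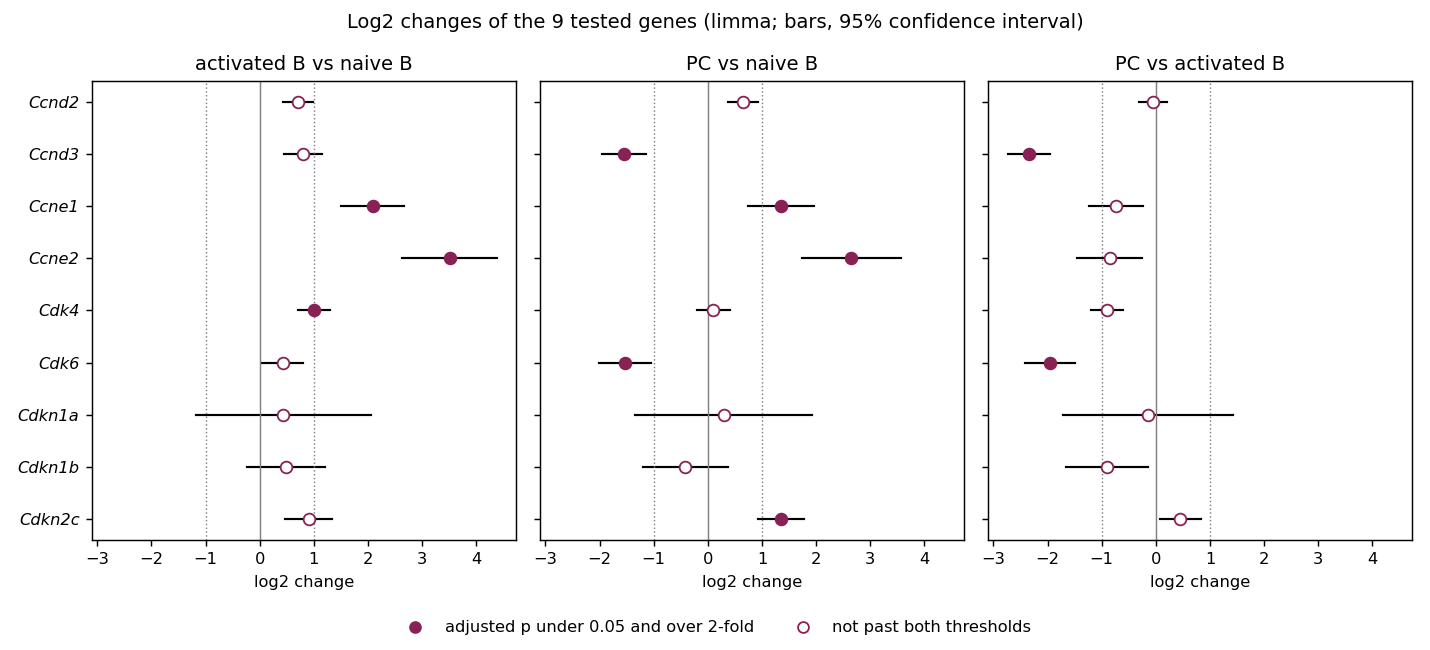
Log2 change of the 9 tested genes in each comparison, with bars for the 95% confidence interval from limma. Filled points passed an adjusted p-value of 0.05 and 2-fold, and dotted lines mark 2-fold. Ccnd3 and Cdk6 are called lower in both comparisons of PCs, and Ccne1 and Ccne2 are called higher than in naive B cells in both antigen-binding groups.

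The inhibitors did not move together. Cdkn2c, encoding p18, was at 10.8, 11.5 and 13.5 TPM in naive B cells, 22.4, 19.7 and 27.0 in activated B cells and 31.2, 38.0 and 26.1 in PCs. Both antigen-binding groups were above all naive libraries, and they overlapped only in that PC replicate 3 was below activated B cell replicate 3. The rise over naive B cells was 1.36 ± 0.19 in PCs (limma, adjusted p = 0.000116) and 0.90 ± 0.20 in activated B cells (adjusted p = 0.00453), the latter under 2-fold. PCs were 0.45 ± 0.17 above activated B cells (adjusted p = 0.0462), which is under 2-fold, and leaving out a library raised that p to as much as 0.155. This difference was 0.83 with median-of-ratios scaling and 0.85 with quantile normalization (limma, adjusted p = 0.00202 and 0.000708), still under 2-fold. With Ig genes kept, the change between PCs and naive B cells was 0.19 and was not called, and that between PCs and activated B cells became -0.71. With the full table not rescaled these were -0.27 (limma, adjusted p = 0.178) and -1.12 (adjusted p = 0.000128), so the rise of Cdkn2c in PCs is a rise relative to transcripts other than Ig.

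Cdkn1b, encoding p27, which restrains quiescent cells, was at 9.73, 9.38 and 12.6 TPM in naive B cells, 25.5, 8.47 and 15.2 in activated B cells and 7.52, 8.35 and 7.47 in PCs. The PC libraries were the lowest of each comparison and close together, while the activated B cell libraries ran from below the naive libraries to above them. With Ig genes left out and every library kept, no change of Cdkn1b was called. The difference between PCs and activated B cells was -0.89 ± 0.34 (limma, adjusted p = 0.0465), and without activated B cell replicate 2 it was -1.28 and was called, whereas without replicate 1 it was -0.52 (adjusted p = 0.126). Relative to naive B cells it was 0.48 ± 0.33 in activated B cells (adjusted p = 0.257) and -0.41 ± 0.36 in PCs (adjusted p = 0.335), and the latter value turned positive under 2 other scalings. It was called lower in both comparisons of PCs with Ig genes kept, at -1.44 against naive B cells and -1.91 against activated B cells.

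Cdkn1a, encoding p21, a target of p53, was low. By SD relative to the mean it was the most variable member in activated B cells and PCs, whereas in naive B cells Ccnd1 was. Its TPM was 5.03, 3.18 and 2.75 in naive B cells, 9.38, 2.81 and 4.61 in activated B cells, and 0.919, 4.88 and 15.5 in PCs, the last from 13.0 to 216.8 estimated reads. The groups overlapped entirely, and the PC libraries alone spanned the range of all the others. The log2 changes were 0.44 ± 0.73 for activated against naive B cells, 0.29 ± 0.74 for PCs against naive B cells and -0.15 ± 0.71 for PCs against activated B cells (limma, adjusted p = 0.653, 0.750 and 0.879). The highest value belonged to PC replicate 3, in which the 8 liver genes summed to 6086 TPM and the 7 myeloid genes to 105.8, and their part in it was not tested. Without that library the changes of PCs were -0.55 against naive B cells and -0.99 against activated B cells, with neither called.

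Of the summed TPM of the 3 inhibitors, Cdkn2c took 45.7% ± 2.96 (SD, n = 3) in naive B cells, 53.5% ± 12.7 in activated B cells and 68.7% ± 13.6 in PCs, and Cdkn1b took 40.2% ± 3.03, 34.8% ± 8.79 and 16.8% ± 1.93. The PC libraries did not overlap with naive B cells in either share, and with activated B cells they overlapped for Cdkn2c but not for Cdkn1b. Cdkn1a made up 2.32, 9.52 and 31.6% in PC replicates 1 to 3. A pair of ratios, chosen after the values had been seen and not tested, sets the activators against the inhibitors. The summed D-type cyclin TPM per summed inhibitor TPM was 5.02 ± 0.364 in naive B cells, 5.25 ± 0.757 in activated B cells and 1.47 ± 0.243 in PCs (SD, n = 3). Cdk4 plus Cdk6 per Cdkn2c was 20.7 ± 1.65, 21.6 ± 1.77 and 8.29 ± 0.933. Both ratios were alike in the B cell groups and lower in every PC library. Both depended on which inhibitors were counted. With Cdkn2d added, the first was 1.01 ± 0.0958 in naive B cells, 1.70 ± 0.0471 in activated B cells and 0.903 ± 0.0872 in PCs, and naive and PC libraries overlapped. The second was then 2.14 ± 0.134 in naive B cells, 4.38 ± 0.393 in activated B cells and 4.35 ± 0.339 in PCs.

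Counted together, 3 of the 9 tested members were called higher in activated than in naive B cells (Ccne1, Ccne2 and Cdk4) and 0 lower, in a comparison that called 18.5% of 12892 tested genes, 8.13% higher and 10.4% lower. At an unadjusted p-value under 0.05 limma also placed 0 members lower, and limma on the deposited log2 values called 0 lower. In PCs against naive B cells, 3 members were called higher (Ccne1, Ccne2 and Cdkn2c) and 2 lower (Ccnd3 and Cdk6), beside 37.8% of all tested genes called, 11.4% higher and 26.3% lower. In PCs against activated B cells, 2 were called lower (Ccnd3 and Cdk6) and 0 higher, where 32.2% of all tested genes were called, 22.3% lower and 9.93% higher. At an unadjusted p-value under 0.05, 1 member, Cdkn2c, was higher in that comparison, and with the deposited log2 values 0 were called higher. The median log2 change of the members was 0.80, 0.29 and -0.85 in the 3 comparisons, and that of all tested genes was -0.16, -0.47 and -0.30. The comparisons share groups of libraries and are not independent of each other. Libraries of activated B cells were all above those of naive B cells for 7 members, as they were for 23.6% of tested genes, and all below for 0 members (32.4% of tested genes). Libraries of PCs were all above naive B cells for 4 members (21.0% of tested genes) and all below for 3 (48.7%), and they were all below activated B cells for 6 (40.9%). Lower values in PCs were thus also common among all tested genes.

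By level, which TPM allows to be compared between genes, Cdk4 and Ccnd3 came first and next in all 3 groups, and Ccnd1 came last. Below them the order changed. In naive B cells Ccnd2 followed at 17.9 ± 1.12 TPM (SD, n = 3), above all genes after it in every library. Then came Cdkn2c at 12.0 ± 1.40, Cdkn1b at 10.6 ± 1.78, Ccne1 at 10.3 ± 1.41 and Cdk6 at 8.58 ± 1.24, of which neighbours overlapped with each other. In activated B cells Ccne1 at 45.6 ± 3.57 and Ccne2 at 36.2 ± 13.9 had higher means than Ccnd2 at 29.5 ± 1.42. In replicate 2, however, Ccne2 (20.9) was below Ccnd2 (27.9). In PCs Cdkn2c at 31.8 ± 5.96 moved up to lie beside Ccnd3 at 38.4 ± 1.57, Ccne1 at 28.5 ± 10.6 and Ccnd2 at 28.4 ± 1.52, which overlapped except that Ccnd3 was above Ccnd2 in every library. Ccne2, last but one in naive B cells at 2.54 ± 0.327, was at 18.7 ± 2.20 in PCs.

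Genes that work with the members were counted from lists of named genes. Of 27 genes for Rb-E2F and CDK partners, all tested, 9 were called higher and 1 lower in activated B cells against naive B cells, where 8.13% of all tested genes were higher and 10.4% lower. The strongest increases belonged to Cdk1, the mitotic kinase (4.01, limma, adjusted p = 1.4e-06), Ccna2, the S phase cyclin (3.84, adjusted p = 1.6e-06), and Cks1b, a CDK adaptor (3.61, adjusted p = 2.2e-07). The gene called lower was Ambra1, which encodes the adaptor for degradation of D-type cyclins, at -1.30 (adjusted p = 0.00035). E2f1 was at 2.26 ± 0.576 TPM in naive B cells, 12.5 ± 10.4 in activated B cells and 5.80 ± 1.47 in PCs (SD, n = 3), with a called rise of 1.94 in activated B cells (adjusted p = 0.021). Rb1 itself was flat relative to transcripts other than Ig, at 22.7 ± 2.89, 21.9 ± 1.19 and 22.1 ± 2.23 TPM. Its 3 log2 changes were -0.05, -0.04 and 0.02 (limma, adjusted p from 0.79 to 0.94).

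In PCs against naive B cells, 7 of the 27 partners were called higher and 5 lower, where 11.4% of all tested genes were higher and 26.3% lower. That split was 3 and 12 with Ig genes kept, where 4.47% of all tested genes were higher and 64.5% lower. It was 12 and 2 with median-of-ratios scaling (18.2% and 14.1% of all tested genes) and 12 and 1 with quantile normalization (16.0% and 15.9%). Without PC replicate 3 it was 9 and 6 (11.8% and 25.9%). Cdk1 (4.03), Cks1b (3.82) and Ccna2 (3.59) were again the highest, and the largest falls were those of E2f5 (-2.20), Ambra1 (-1.52) and E2f6 (-1.23). In PCs against activated B cells, 0 were called higher and 5 lower, where 22.3% of all tested genes were lower, with 2 higher at an unadjusted p-value under 0.05 (Cdc25a and Fbxw7) and 0 by limma on the deposited log2 values. Without activated B cell replicate 2, 7 were lower (23.9% of all tested genes), and without PC replicate 3, 6 (21.4%). Keeping Ig genes gave 21 lower, beside 59.7% of all tested genes. With median-of-ratios scaling 1 was higher and 4 lower (15.7% and 13.9% of all tested genes), and with quantile normalization 2 and 4 (13.9% and 14.3%). Apart from Tfdp1, the dimer partner of E2F, the 3 largest falls were those of E2f5, a repressor E2F, at -2.46 (limma, adjusted p = 0.00024), E2f6 at -1.74 (adjusted p = 0.00012) and E2f4 at -1.73 (adjusted p = 4.9e-06). Cdk2, the partner of the E-type cyclins, was also called lower at -1.15 (adjusted p = 0.00017), having stood at 26.1 ± 2.73 TPM in naive B cells, 45.3 ± 8.77 in activated B cells and 19.9 ± 0.791 in PCs (SD, n = 3). Tfdp1 passed the filter in activated B cells and not in every library of the other groups, and it varied widely within groups, at 20.3 ± 9.58 TPM in activated B cells and 2.72 ± 4.66 in PCs. Its PC libraries ran from 3.06e-08 to 8.10 TPM, so its fitted change depends on the offset and is not given. Tfdp1 is counted among the 5 lower genes, the others being E2f4, E2f5, E2f6 and Cdk2. It is also counted among the genes higher in activated than in naive B cells.

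Among other CDK inhibitors, Cdkn1c and Cdkn2a were below the filter, at no more than 0.246 and 1.70 TPM in any library, and 3 of 5 were tested. Cdkn2d, which encodes p19, another INK4 inhibitor, was at 104 ± 5.78 TPM in naive B cells, 91.3 ± 20.0 in activated B cells and 28.3 ± 2.04 in PCs (SD, n = 3). It was thus more abundant than Cdkn2c in both B cell groups and of like level in PCs. Cdkn2d fell in PCs by 1.86 relative to naive B cells (limma, adjusted p = 4.0e-06) and fell by 1.65 relative to activated B cells (adjusted p = 1.4e-05), while Cdkn2c rose over naive B cells. Cdkn3, a phosphatase that acts on CDKs, rose by 4.08 in activated B cells and 3.41 in PCs. Cdkn2b averaged 0.0930, 1.16 and 1.43 TPM in the 3 groups and passed the filter only through the antigen-binding groups, where it was higher, so no test is given for it. Of the other 2 tested genes, Cdkn3 was thus called higher in both comparisons with naive B cells and Cdkn2d lower in both comparisons of PCs.

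Genes of S phase and mitosis, which report on cycling itself, were called higher in activated B cells than in naive B cells for 22 of 23, with a median log2 change of 2.88, beside the 8.13% of all tested genes called higher. The strongest increases were in Ccnb2, a mitotic cyclin (4.72), Birc5 (4.59) and Plk1 (4.28), and the gene not called was Cdt1, a replication licensing factor, at -0.90 (limma, adjusted p = 0.0022). In PCs against naive B cells, 14 of 23 were called higher and 0 lower, with a median of 2.28, where 11.4% of all tested genes were higher and 26.3% lower. Keeping Ig genes gave 12 higher and 3 lower, beside 4.47% and 64.5% of all tested genes. Mki67, the gene for Ki-67, was at 2.25 ± 0.761 TPM in naive B cells, 49.7 ± 2.46 in activated B cells and 66.4 ± 12.0 in PCs (SD, n = 3), which gave rises of 4.22 and 4.62 over naive B cells and a difference of 0.40 between the antigen-binding groups (adjusted p = 0.045), which became -0.78 with Ig genes kept. Rrm2, a subunit of ribonucleotide reductase, stood with Mki67 and Birc5 as the largest rises in PCs, at 4.20. At an unadjusted p-value under 0.05 only Cdt1 was lower in either comparison with naive B cells, and limma on the deposited log2 values called 0 lower.

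Between PCs and activated B cells 6 of the 23 were called lower, a share near the 22.3% of all tested genes, and 0 higher, with 1, Mki67, higher at an unadjusted p-value under 0.05 and 0 by limma on the deposited log2 values. The 3 largest falls were those of Mcm4 (-1.41), Mcm3 (-1.29) and Tk1 (-1.25), genes of replication licensing and nucleotide supply. Genes of these functions did not all follow. Rrm1 (-1.18) and Mcm7 (-1.07) were also called lower, whereas Mcm6 (-0.33), Tyms (-0.31), Rrm2 (0.08) and Cdt1 (0.32) were not called. The count of 6 depended on scaling, being 1 with median-of-ratios scaling or quantile normalization (13.9% and 14.3% of all tested genes lower) and 21 with Ig genes kept (59.7%). It was 4 without PC replicate 3 (21.4%) and 8 without activated B cell replicate 2 (23.9%). The PC libraries, lowest in Ccnd3 and Cdk6, were thus also libraries in which Mki67 was far above naive B cells.

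**Figure D4:**
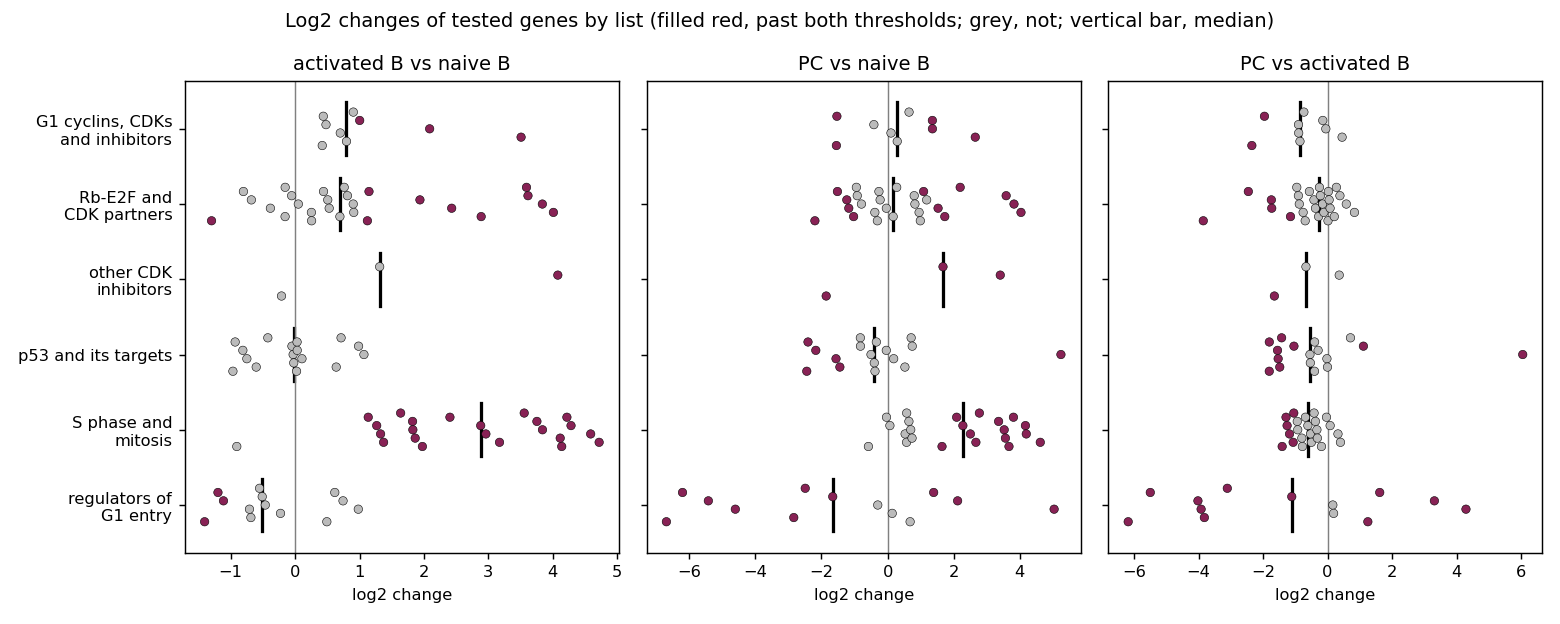
Log2 change of each tested gene in the members and in 5 lists, by comparison, where each point is a gene, red points passed an adjusted p-value of 0.05 and 2-fold, and the vertical bar is the median. Points are included for Tfdp1, Cdkn2b and Plk2, and for Pax5 and Bcl6 in PCs, whose fitted changes the text does not give. In both comparisons with naive B cells the median of the other CDK inhibitors is the value of Cdkn2b itself. S phase and mitosis genes lie mostly to the right of 0 in both comparisons with naive B cells, with medians of 2.88 and 2.28 and with Cdt1 to the left in both and Mcm4 at -0.03 in PCs, and their position in the comparison of PCs with activated B cells (median -0.61) depends on scaling.

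Of 20 genes for p53 and its targets, 17 were tested and 0 were called in either direction between activated and naive B cells, where 8.13% of all tested genes were called higher and 10.4% lower. At an unadjusted p-value under 0.05 limma placed 3 higher (Bax, Bbc3 and Ccng1) and 4 lower (Btg2, Gadd45a, Plk2 and Sesn1), and on the deposited log2 values it called 0. A fit with the replicate number as a block called 1 higher, beside 8.61% of all tested genes, as did median-of-ratios scaling, beside 9.76%. Quantile normalization called 1 higher and 1 lower, beside 8.97% and 7.57%. In PCs 1 was called higher and 5 lower relative to naive B cells, and 2 higher and 7 lower relative to activated B cells, where 26.3 and then 22.3% of all tested genes were called lower. With Ig genes kept, where 16 were tested, these became 1 and 12 in both comparisons, beside 4.47% and then 3.41% of all tested genes higher and 64.5% and then 59.7% lower. With median-of-ratios scaling they were 3 and 4 and then 3 and 6, beside 18.2% and then 15.7% of all tested genes higher and 14.1% and then 13.9% lower. Trp53 itself was at 105 ± 7.90 TPM in naive B cells, 103 ± 9.50 in activated B cells and 35.6 ± 6.31 in PCs (SD, n = 3), so that it fell by 1.56 and fell by 1.53 in the comparisons of PCs (limma, adjusted p = 4.4e-06 and 6.6e-06). Trp53inp1, a p53 target that is also induced by other stress signals, rose by 5.24 over naive B cells and by 6.05 over activated B cells, and Btg2, an antiproliferative gene, rose by 1.11 over activated B cells, a difference of -0.091 with Ig genes kept. Relative to naive B cells, Sesn1 (-2.41) and Gadd45a (-2.17) fell. Plk2, which is counted among the lower genes, averaged 4.21, 1.99 and 0.382 TPM and passed the filter only through the B cell groups, where it was higher, so no test is given for it. Without Plk2 the lower genes were Trp53, Sesn1, Gadd45a and Ei24 relative to naive B cells, joined by Bax and Bbc3 relative to activated B cells. The largest falls relative to activated B cells were those of Bbc3 (-1.81), Sesn1 (-1.80) and Ei24 (-1.55). Cdkn1a, which no comparison called, is the target that belongs to the members.

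Among regulators known to act on G1 entry, as among all tested genes, more calls were made in the comparisons of PCs (37.8 and 32.2% of all tested genes) than between activated and naive B cells (18.5%). Of 13 tested, 0 were called higher and 3 lower between activated and naive B cells (Bcl6 at -1.40, Irf4 at -1.20 and Mxd1 at -1.11), with 3 higher at an unadjusted p-value under 0.05 (Klf2, Mxd4 and Myc) and 1 called higher by limma on the deposited log2 values. In PCs 3 were higher and 7 lower than in naive B cells, where 11.4% of all tested genes were higher and 26.3% lower. Relative to activated B cells 4 were higher and 7 lower, where these shares were 9.93% and 22.3%. With Ig genes kept the counts were 1 and 7 and then 2 and 7, beside 4.47% higher and 64.5% lower and then 3.41% and 59.7% of all tested genes. Prdm1 rose by 5.04 and 4.29, Irf4 by 2.12 and 3.31, and Foxo3 by 1.39 and 1.62 in these comparisons, Foxo3 becoming 0.29 and 0.52 with Ig genes kept. Irf4 was then 0.91 above naive B cells and not called, and 0.46 above them (limma, adjusted p = 0.0553) without rescaling. GFP from the Prdm1 locus was part of the sort, so the rise of Prdm1 is not a finding, although it is counted among the higher genes. With Ig genes left out, the other higher genes were Irf4 and Foxo3, joined relative to activated B cells by Mxd1 (1.25). The lowest fitted changes were those of Btg1, an antiproliferative gene of resting lymphocytes (-6.69 and -6.18), Pax5, the B cell identity factor, and Bcl6, a repressor of Prdm1. Pax5 averaged 81.9 and 50.4 TPM in naive and activated B cells and was at 0.219 to 1.18 in PCs, and Bcl6 averaged 45.2 and 16.9 and was at 0.228 to 1.09. Both passed the filter through the B cell groups, and so near 0 their fitted changes depend on the offset and are not given. They are counted among the 7 lower genes in both comparisons of PCs, and the others were Myc, Foxo1, Klf2, Bach2 and Btg1. Myc, which promotes G1 entry and binds the E-box and was chosen after its values had been seen, was at 71.0 ± 2.24 TPM in naive B cells, 110 ± 11.6 in activated B cells and 12.5 ± 3.29 in PCs (SD, n = 3).

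**Figure D5:**
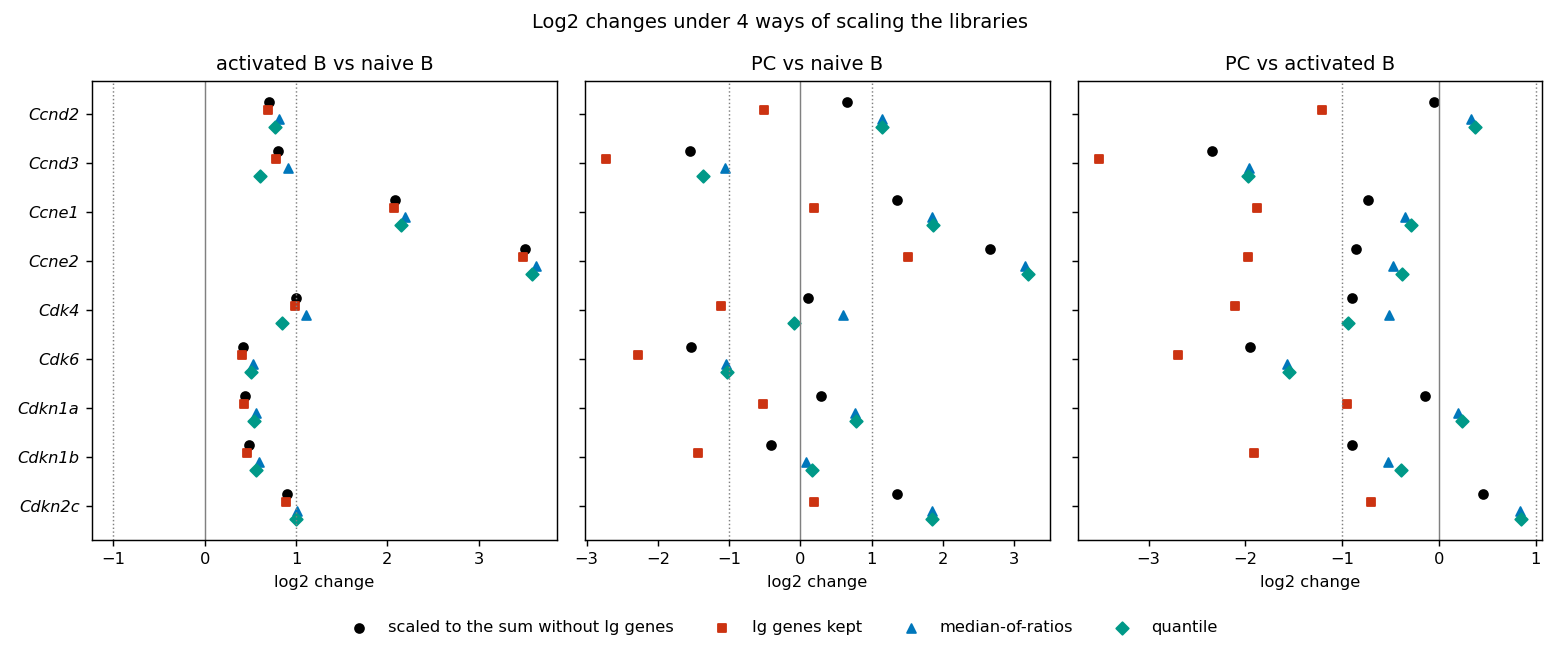
Log2 change of the 9 tested genes in each comparison under 4 ways of scaling the libraries, which are the sum without Ig genes (black circles), the sum with Ig genes kept (red squares), median-of-ratios (blue triangles) and quantile normalization (green diamonds), with dotted lines at 2-fold. Keeping Ig genes moves every gene in PCs to the left, while Ccnd3 and Cdk6 stay below -1 in both comparisons of PCs under all 4.

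The direction of several members in PCs depended on the reference chosen. Keeping Ig genes in the library total moved the median of all tested genes by -0.93 in PCs against naive B cells and by -0.97 against activated B cells, median-of-ratios scaling moved it by 0.49 and 0.38, and quantile normalization by 0.40 and 0.30. With Ig genes kept, the comparison of PCs with naive B cells called 1 member higher (Ccne2 at 1.50) and 4 lower (Ccnd3, Cdk4, Cdk6 and Cdkn1b), and 7 were called lower than in activated B cells, beside 64.5% and then 59.7% of all tested genes called lower. That total is the sum over listed genes, and with the full table not rescaled the medians moved by -1.38 in both comparisons and 8 members were called lower than in activated B cells, as were 72.3% of all tested genes. With the other scalings 4 were called higher and 2 lower than in naive B cells, Ccnd2 joining the former. Of all tested genes, median-of-ratios scaling called 18.2% higher and 14.1% lower in that comparison, and quantile normalization 16.0% and 15.9%. Ccnd3 and Cdk6 were called lower in both comparisons of PCs, and Ccne2 higher than in naive B cells in both antigen-binding groups, with each of these scalings. Without PC replicate 3 the counts of members were as reported. Without activated B cell replicate 2, the library with the higher myeloid sum, 5 were called lower in PCs than in activated B cells, with Ccne2, Cdk4 and Cdkn1b added, beside 23.9% of all tested genes. Without the same library 4 were called higher in activated than in naive B cells, with Cdkn2c added, beside 9.44% of all tested genes. The part of that library's myeloid transcripts was not tested.

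For members with a mean of at least 5 TPM, the closest pattern over the 9 libraries was sought among 7271 other genes with a mean of at least 10 TPM, as the root mean square difference of centred log2(TPM + 0.5). Ccnd2 was followed most closely by Eif3a (0.0721) and Psmb1 (0.0750), which encode a translation initiation factor and a proteasome subunit. Ccnd3 was followed by Ctsc (0.102), a lysosomal protease, which was at 271 ± 16.1, 452 ± 65.9 and 96.9 ± 2.37 TPM in the 3 groups (SD, n = 3), and by Bfsp2 (0.163). The nearest to Cdk4 were Anapc15 (0.113) and Smc3 (0.113), and to Cdk6 Impdh2 (0.133) and Stk38 (0.145). Ccne1 lay nearest to Dscc1 (0.205) and Ccnf (0.245) and Ccne2 to Kif18b (0.189) and Cep55 (0.219). Cdkn2c was nearest to Phf5a (0.150) and Etf1 (0.159), and Cdkn1b to Ube2q2 (0.185) and Pde6d (0.209). No gene came near Cdkn1a, for which the smallest differences were 0.627 (Ugdh) and 0.643 (Tstd1).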

How the data were processed

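RNA-seq was available for 9 libraries, 3 each of naive B cells, activated B cells and PCs, grouped by their labels. cDNA had been made by template switching with a kit that does not mark strand, and per the labels libraries were made with Nextera XT reagents. By the study's account the NP-binding cells came from 3 mice, and the labels do not say whether libraries with the same number share a mouse. The submitters' processing notes name kallisto, limma and the mm10 build. The authors deposited TPM, summed by gene symbol, for all 30317 genes and for the 29995 genes left after removal of Ig genes, and deposited log2 values made from the same estimates with voom. Estimated reads were recovered from the deposited log2 values, in which all genes at a TPM of 0 share 1 value per library that stands for 0.5 reads. They bear on counting error alone, because no molecular identifiers were used and a molecule can be read more than once.

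TPM of the table without Ig genes was passed to voom (limma 3.58.1, R 4.3.3), with the column sum as library size, and all 9 libraries were fitted with a mean per group. The 12892 genes that reached 1 TPM in 3 or more libraries were tested, two-sided, with Benjamini-Hochberg adjustment over all of them. Changes are given in log2(TPM + 0.5) and are therefore understated for genes of low level. Because TPM and not counts entered voom, precision weights do not follow read depth. Shares were compared by exact permutation tests (scipy 1.17.1). From each list, up to 3 called genes with the largest rise and the largest fall were named in each comparison, besides Mki67, Rb1, E2f1, Cdk2 and Trp53, and Myc was added after its values had been seen. The members, lists, tests and naming rule were chosen with earlier results of these data known. Alternatives covered the block, the offset, the filter, Ig genes, scaling, the deposited log2 values, the libraries in the fit and each library left out, and, chosen after the data had been seen, the full table without rescaling to its listed sum. Which sequencer read which library is not given in the sources used here, so a sequencing batch was not examined. Gene positions came from GENCODE M21, promoter sequences from RefSeq GRCm38.p6, and Python 3.11.15 and matplotlib 3.10.9 were used. Tigar was not in the table, and protein sequences were not used here.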

Additional observations from a re-analysis of the deposited data

How the results depend on the processing

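Whether same-numbered libraries share a mouse is not given, and they were not treated as pairs. Their deviations from the group means correlated at -0.0749 to 0.0675. With a replicate block the counts over all genes were 1110 higher and 1343 lower for activated against naive B cells, 1507 and 3391 for PCs against naive B cells, and 1323 and 2915 for PCs against activated B cells, and counts of members were as reported. Of 534 log2 changes of members recomputed, 486 kept their direction and call, 19 gained a call, 8 lost a call and 21 changed sign.

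For PCs against activated B cells, the log2 change of Ccnd2 was 0.011 with the deposited log2 values, 0.33 with median-of-ratios scaling and 0.37 with quantile normalization, that of Cdkn1a was 0.20 and 0.24 with the last 2, and that of Cdkn2c was -0.71 with Ig genes kept. For PCs against naive B cells, values with Ig genes kept were -0.52 for Ccnd2, -1.11 for Cdk4 and -0.52 for Cdkn1a, and those with quantile normalization were -0.091 for Cdk4 and 0.17 for Cdkn1b, which was at 0.075 with median-of-ratios scaling. With Ig genes kept, PCs had 1 member called higher and 4 lower against naive B cells and 7 lower against activated B cells, where 64.5% and 59.7% of all tested genes were called lower. With the full table not rescaled, chosen after the data had been seen, those against naive B cells were -0.97 for Ccnd2, -0.26 for Ccne1, -1.57 for Cdk4, -0.97 for Cdkn1a and -0.27 for Cdkn2c, and that of Cdkn2c against activated B cells was -1.12. In that fit 1 member was higher and 4 lower against naive B cells and 8 lower against activated B cells, where 77.9% and then 72.3% of all tested genes were called lower. A mean of at least 10 TPM left out Cdk6 and Cdkn1a and so left 1 member lower in each comparison of PCs. Leaving out 1 library at a time gave 2 to 5 members lower in PCs than in activated B cells, the highest without activated B cell replicate 2, where 23.9% of all tested genes were lower. It gave log2 changes of Cdkn1a in PCs of -0.55 to 1.19 against naive B cells and -0.99 to 0.75 against activated B cells.

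Over all genes, that filter gave 685 higher and 494 lower for activated against naive B cells (1048 and 1340 as reported), 972 and 1993 for PCs against naive B cells (1473 and 3397), and 750 and 1890 for PCs against activated B cells (1280 and 2870), with fewer genes tested. In the latter 2 comparisons, keeping Ig genes gave 551 higher and 7943 lower and 420 and 7355, the same without rescaling 373 and 9601 and 320 and 8909, median-of-ratios scaling 2349 and 1814 and 2023 and 1788, and quantile normalization 2063 and 2047 and 1795 and 1843. Among these, higher calls outnumbered lower calls with median-of-ratios scaling in both comparisons of PCs and with quantile normalization against naive B cells alone. For activated against naive B cells, median-of-ratios scaling gave 1258 higher and 1022 lower and quantile normalization 1157 and 976. Higher calls thus outnumbered lower calls there too, unlike in the counts as reported.

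Leaving out a library moved some shares across 0. In percentage points, activated minus naive B cells ranged from -1.84 to 0.28 for Ccnd2, from -0.088 to 2.00 for Ccnd3 and from -4.66 to 0.41 for Cdkn1a. PCs minus naive B cells ranged from -8.20 to 6.43 for Cdkn1a, and PCs minus activated B cells from -5.85 to 8.78 for Cdkn1a and from -1.01 to 7.46 for Ccne1. None of these had passed a test. The lowest estimated reads in a library were 17.5 for Ccnd1 and 13.0 for Cdkn1a, so their counting error is large there. The number of libraries, 3 in each group, sets the precision of all other values.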
